A study of Homo sapiens with 4 samples.

Results

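Integrins and laminins are the receptors and ligands by which epithelial cells hold to the basement membrane. The set described here holds 31 genes, chosen by symbol from the 19972 gene symbols of the deposited tables, namely 13 integrin alpha chains, 8 integrin beta chains and 10 laminin chains. All 31 symbols were present in each table. HCT116 is a human colon carcinoma cell line, here grown in DMEM with serum. Cells of both groups were transfected at 100 nM, either with a non-targeting control siRNA (si-NC) or with an siRNA against LINC00152 (si-152), a long noncoding RNA, and RNA was sequenced after 36 h. Each group had 2 biological replicates, giving 4 libraries. The comparison asks how the mRNA profile of these cells differs once LINC00152 is suppressed. LINC00152 itself was not analysed here, and the depth of its suppression in these 4 libraries is therefore not given.

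An integrin is a pair of 1 alpha and 1 beta chain that spans the membrane, binds matrix proteins outside the cell and couples them through talin and kindlin to actin inside it. The beta chain ITGB1 joins most alpha chains, while ITGB4 joins only ITGA6 and anchors keratin filaments at hemidesmosomes. Receptors built on ITGA3, ITGA6 or ITGA7 bind laminins, those built on ITGA1, ITGA2, ITGA10 or ITGA11 bind collagens, and those built on ITGA5 or ITGAV bind fibronectin, vitronectin and related ligands. Secreted laminins are cross-shaped trimers of an alpha, a beta and a gamma chain, named by their chains, so that laminin α5β1γ1 holds LAMA5, LAMB1 and LAMC1. In the gut epithelium laminin α5β1γ1 is a main laminin of the basement membrane.

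The values are FPKM (fragments scaled by transcript length and by library size), so levels of different genes can be set side by side. Read totals are unknown, so the counting error of these values cannot be worked out. The summed FPKM of a library ran from 424742 to 534297, and 14588 to 14685 genes were above 0. The cells carried epithelial markers, with EPCAM between 191 and 240 FPKM, and 7 of 12 colon epithelial markers reached 1 FPKM in every library. Of the intestinal differentiation markers in that list, CDX2 was at 8.29 to 10.4 FPKM, and CDX1 and LGALS4 were listed at 0 in all 4 libraries. VIL1, GPA33 and CDH17 were at most 0.0567, 0.126 and 0.0412 FPKM. Of 7 endothelial markers 0 reached 1 FPKM in every library, of 13 leukocyte markers 1 did (CD68), and of 10 fibroblast markers 2 did (COL1A1 and ACTA2), with PTPRC and PDGFRA listed at 0 throughout. ACTA2, smooth muscle actin, measured 2.82 and 2.53 FPKM in the si-NC libraries against 4.76 and 5.29 FPKM in the si-152 libraries. COL1A1 measured 7.98 and 7.02 FPKM in si-NC against 7.74 and 7.11 FPKM in si-152, and the groups overlapped. The summed fibroblast markers ran from 9.64 to 10.9 FPKM in si-NC and from 12.5 to 12.7 FPKM in si-152. The higher sum came from ACTA2 and not from the list as a whole. Of the epithelial markers, KRT8, a simple-epithelial keratin, measured 1046 and 1138 FPKM under si-NC against 718 and 912 FPKM under si-152. KRT18 and ELF3 were also lower in both si-152 libraries than in both si-NC libraries. Of all genes tested, 13.9% were lower in this way. EPCAM, CDH1, KRT19 and CDX2, the other epithelial markers at 1 FPKM or more, overlapped between the groups. The summed epithelial markers, mostly KRT8, KRT18 and KRT19, ran from 3087 to 3583 FPKM in si-NC and from 2429 to 3018 FPKM in si-152. The part of these markers in the results given here was not tested. In bulk RNA, fewer cells of a type and less RNA per cell cannot be told apart.

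Of the 21 integrin chains, 9 were at 1 FPKM or more in all 4 libraries, ITGB1 was so in 3 libraries, and 11 stayed under 1 FPKM in each. Of the 10 laminin chains 7 were at 1 FPKM or more in all libraries, LAMA2 was so in 1 library, and LAMA1 and LAMA4 in 0. The 13 members that stayed under 1 FPKM everywhere ranged from 0 to 0.641 FPKM, the highest being ITGB8.

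**Figure D1:**
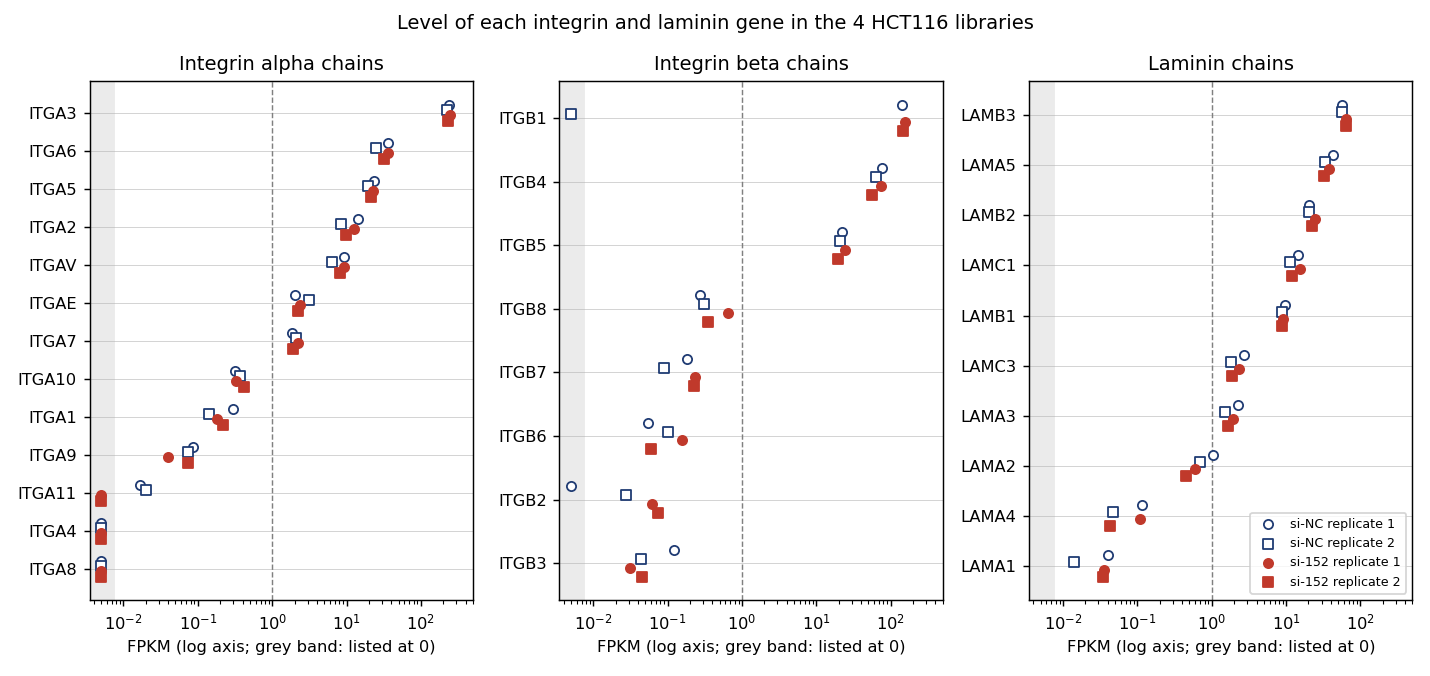
FPKM of each of the 31 genes in the 4 libraries on a log axis, 1 panel each for integrin alpha chains, integrin beta chains and laminin chains, with a dashed line at 1 FPKM and a grey band for values listed at 0. ITGA3 lies at 222 to 248 FPKM, far above the next alpha chain, and ITGB1 is listed at 0 in si-NC replicate 2 only.

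ITGA3, the alpha chain of the laminin receptor α3β1, was the most abundant member. The gene spans bases 50055968 to 50090481 of chromosome 17, plus strand (GRCh38). ITGA3 measured 239 and 222 FPKM in the si-NC libraries against 248 and 229 FPKM in the si-152 libraries, above 98.3% of the genes with a median above 0. It made up 73.3% and 77.3% of the summed alpha chain FPKM in si-NC and 74.2% and 75.2% in si-152. The ranges of the groups overlapped.

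ITGA6, which pairs with ITGB1 or ITGB4 to bind laminin, was the next alpha chain. ITGA6 measured 35.7 and 25.0 FPKM in the si-NC libraries against 36.1 and 31.7 FPKM in the si-152 libraries. ITGB4, its hemidesmosomal partner, measured 76.0 and 63.1 FPKM in the si-NC libraries against 73.9 and 56.8 FPKM in the si-152 libraries. In every library ITGB4 lay above ITGA6, by a ratio of 1.79 to 2.52, and replicate 2 was the lower library of each group for both genes. ITGA7, which also forms a laminin receptor and is best known from muscle, was at only 1.85 to 2.21 FPKM, and coding exons of BLOC1S1 and METTL7B overlap it on the opposite strand.

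ITGB1 is the common beta chain, encoded on chromosome 10 from 32900319 to 33005792 on the minus strand. ITGB1 stood at 144 FPKM in the first si-NC library and under si-152 at 157 and 149 FPKM, but it is listed at 0 in si-NC replicate 2. The 0 stands alone: 6 genes in the whole table were listed at 0 in 1 library and above 20 FPKM in another, and ITGB1 was the only member among them. Every alpha chain that reached 1 FPKM in the other libraries did so in si-NC replicate 2 as well, and the value is given here as a listed 0 and not as a measured absence. In the 3 other libraries ITGA3 stood at 1.54 to 1.66 times ITGB1.

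ITGA5, the main fibronectin receptor chain, measured 23.2 and 19.7 FPKM in the si-NC libraries against 22.9 and 21.3 FPKM in the si-152 libraries. ITGB5, which pairs with ITGAV to bind vitronectin, measured 22.01 and 20.8 FPKM in the si-NC libraries against 24.2 and 19.6 FPKM in the si-152 libraries. The 2 genes could not be ordered, since their ranges overlapped and each was the higher in 2 of 4 libraries. ITGA2, a collagen receptor chain, measured 14.4 and 8.55 FPKM in the si-NC libraries against 12.5 and 9.71 FPKM in the si-152 libraries, and ITGAV was at 6.43 to 9.34 FPKM. The level order ITGA3, ITGB4, ITGA6 held in all 4 libraries without overlap of ranges, whereas ITGA2 and ITGAV overlapped in range although ITGA2 was the higher in each library.

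ITGA1 and ITGA2 lie next to each other on chromosome 5 of GRCh38, 30116 bases apart and on the same strand, and both code for collagen receptor chains. Their levels differed by a ratio of 43.9 to 69.3 in each library, with ITGA1 at 0.143 to 0.296 FPKM. Coding exons of PELO overlap ITGA1 on the same strand. The other collagen receptor chains, ITGA10 and ITGA11, were at 0.319 to 0.423 FPKM and 0 to 0.0202 FPKM. Thus ITGA2 was the only alpha chain of the collagen receptors at 1 FPKM or more.

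ITGAE aside, ITGA4 and the beta chains best known from leukocytes and from activated or wounded cells stayed under 1 FPKM. ITGB2, the leukocyte beta chain, was at most 0.0748 FPKM. ITGB7 stayed at or below 0.236 FPKM, and ITGA4, which pairs with ITGB1 or ITGB7, was listed at 0 in every library, as was ITGA8. ITGAE, whose protein pairs with ITGB7 on intraepithelial lymphocytes, was at 2.05 to 3.13 FPKM without its partner. Coding exons of HASPIN overlap ITGAE on the opposite strand, and whether reads were assigned by strand is not given in the sources used here. ITGB3, ITGB6 and ITGB8, the partners of ITGAV on activated, wounded and other epithelial or glial cells, reached at most 0.121, 0.155 and 0.641 FPKM.

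Counted as receptors, 8 of 19 known integrin pairs of these chains had both chains at 1 FPKM or more in at least 3 libraries. They were α6β4 and αvβ5, which passed in all 4 libraries, and α2β1, α3β1, α5β1, α6β1, α7β1 and αvβ1, which passed in 3 because of the listed 0 of ITGB1. In α3β1 the lower chain was ITGB1, at 144 to 157 FPKM in those 3 libraries. In every other β1 pair the lower chain was the alpha chain, so the alpha chains set the order of the pairs by mRNA.

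Among the laminins LAMB3, a beta chain of epithelial anchoring laminins, was the most abundant. LAMB3 lies on chromosome 1 from 209614870 to 209652466 on the minus strand. It measured 56.1 and 56.1 FPKM in the si-NC libraries against 63.6 and 63.6 FPKM in the si-152 libraries. Both si-152 libraries lay above both si-NC libraries, and the replicates of each group were almost equal. LAMA3, the alpha chain with which LAMB3 is assembled in skin and gut, measured 2.23 and 1.51 FPKM in the si-NC libraries against 1.96 and 1.68 FPKM in the si-152 libraries, so that LAMB3 stood 25.2 to 37.9 times above it.

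LAMA5, the alpha chain of laminin α5β1γ1 and laminin α5β2γ1, measured 43.1 and 33.9 FPKM in the si-NC libraries against 38.2 and 31.9 FPKM in the si-152 libraries. It made up 92.6% to 93.7% of the summed laminin alpha chain FPKM. LAMB2, a beta chain of basement membranes, measured 20.3 and 20.2 FPKM in the si-NC libraries against 24.4 and 21.99 FPKM in the si-152 libraries, with both si-152 libraries above both si-NC libraries. LAMC1, the gamma chain shared by most laminins, measured 14.6 and 11.2 FPKM in the si-NC libraries against 15.3 and 12.1 FPKM in the si-152 libraries, and LAMB1 was at 8.85 to 9.71 FPKM. The order LAMB3, LAMA5, LAMB2, LAMC1, LAMB1, LAMC3 held without overlap of neighbouring ranges, and LAMC3 and LAMA3 overlapped. Coding exons of ADRM1 overlap LAMA5, and those of DLD overlap LAMB1, on the opposite strand.

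Of 12 known laminin trimers that can be built from these chains, 5 had every chain at 1 FPKM or more in all 4 libraries, and they were α5β1γ1, α5β2γ1, α5β2γ3, α3β1γ1 and α3β2γ1. The lowest chain of laminin α5β2γ1 was LAMC1, at 11.2 to 15.3 FPKM, and that of laminin α5β1γ1 was LAMB1. The trimers with LAMA1 or LAMA4 had their alpha chain at no more than 0.116 FPKM. LAMA2, the muscle and nerve laminin chain, measured 1.05 and 0.703 FPKM in the si-NC libraries against 0.591 and 0.450 FPKM in the si-152 libraries, with both si-152 libraries below both si-NC libraries. It reached 1 FPKM in 1 library, so it was not tested.

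Sequences at the gene starts are shown because the study concerns YAP1, a coactivator that reaches DNA through TEAD factors, often beside AP-1. RefSeq windows of 300 bases (250 before to 50 after a start, GRCh38.p14) were matched by symbol for 23 of the 31 members, 30 windows in all. They were searched on both strands for TGANTCA, the AP-1 motif, and for GGAATG, the core of the TEAD motif. AP-1 letters were found at ITGA5, LAMA3 and LAMB3, in 3 of 30 windows, against 7.71% of all 35116 windows. In the stretches shown here, written 5′ to 3′ on the strand of the gene, capitals mark the motif, and the stretches lie at chr1:209651425-209651451, chr12:54419256-54419282, chr18:23872885-23872911 and chr18:23872941-23872967 in that order.
LAMB3: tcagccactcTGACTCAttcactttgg
ITGA5: ctccccgcgtTGAGTCAttcgcctctg
LAMA3 far match: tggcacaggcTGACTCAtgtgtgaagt
LAMA3 near match: cttcctcaccTGAGTCAggcaggcccg
TEAD letters were found at ITGA5, ITGB1, ITGA10 and LAMA2, in 4 of 30 windows, against 14% of all windows. They are shown for the expressed pair, at chr10:32958395-32958424 and chr12:54419331-54419360.
ITGB1: cgcggcgggagaGGAATGcgtttccggagg
ITGA5: tccagggacccaGGAATGcccccccgccag
The members with AP-1 letters had median levels from 1.82 FPKM (LAMA3) to 59.9 FPKM (LAMB3), so these letters were found at low and at high members alike. Both LAMA3 matches lie before the RefSeq start used. That start lies 183577 bases inside the LAMA3 gene as GENCODE bounds it, and those used for ITGB1 and LAMB3 lie 47562 and 1092 bases inside theirs, so these windows are at internal starts.

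Suppression of LINC00152 left no integrin or laminin gene past the test. On log2(FPKM + 1), limma's moderated test was run on the 11221 genes that reached 1 FPKM in 2 or more libraries, 17 of them members. Of these 17, 0 had an adjusted p under 0.05 by limma (Benjamini-Hochberg over all genes tested) and 0 had an unadjusted p under 0.05, against 0.0178% and 4.38% of all genes tested. Every adjusted p of the 17 was 1.00 after rounding. An exact permutation test of 2 against 2 libraries cannot go below a two-sided p of 0.333, so none is given.

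**Figure D2:**
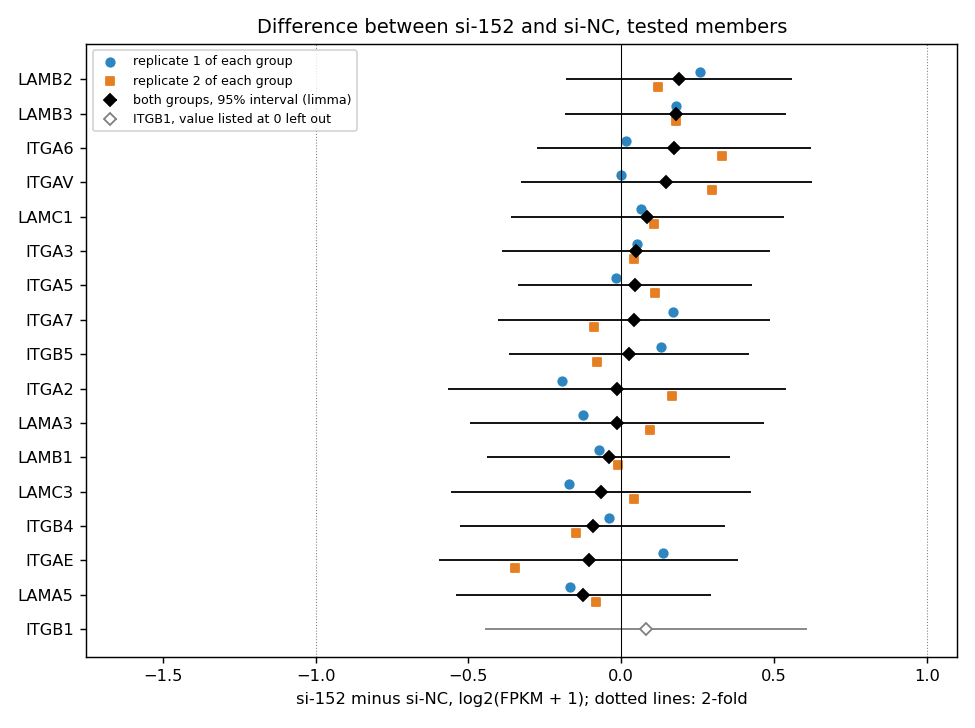
Difference between si-152 and si-NC on log2(FPKM + 1) for the tested members, with the 95% interval of limma (diamonds and lines) and the difference within replicate 1 (circles) and replicate 2 (squares). All intervals span 0 and lie inside the dotted lines at 2-fold. ITGB1 is drawn without its listed 0.

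The size of the differences was small and bounded. Without ITGB1 the log2 differences of the tested members ran from -0.12 (LAMA5) to 0.19 (LAMB2), 9 being above 0 and 7 below. Their median was 0.03, beside 0.02 over all genes tested. The 95% intervals of all 16 lay within 2-fold in either direction, and 13 of the 16 lay within 1.5-fold. The widest bounds were a 0.662-fold level for ITGAE and a 1.54-fold level for ITGAV. With 2 replicates a group, a difference anywhere inside the interval of a gene remains possible for that gene. An interval that spans 0 does not show that a gene was the same in both groups.

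Among the laminin-binding chains ITGA3 had a log2 difference of 0.05 (standard error 0.20), with a 95% interval from -0.39 to 0.49. ITGA6 had one of 0.17 (standard error 0.20), with 0.02 in replicate 1 and 0.33 in replicate 2. ITGB4 had one of -0.09 (standard error 0.19), with -0.04 and -0.15 in the replicates. The 2 chains of α6β4 thus lay on opposite sides of 0, each within its standard error or close to it. For ITGB1 as listed, the log2 difference was 3.67 (standard error 1.65, adjusted p = 1.00 by limma), which rests on the listed 0. With that value left out it was 0.08 (standard error 0.23), an interval from 0.735-fold to 1.52-fold, and within replicate 1 it was 0.12.

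The fibronectin and collagen receptor chains showed no common direction. ITGA5 had a log2 difference of 0.05 (standard error 0.17), ITGB5 one of 0.03 (standard error 0.18) and ITGA2 one of -0.01 (standard error 0.25). In each of these genes the replicates went opposite ways, for ITGA2 by -0.19 and 0.17. ITGAV had a difference of 0.15 (standard error 0.21), nearly all of it in replicate 2, since ITGAV was at 9.34 FPKM in both libraries of replicate 1.

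In LAMB3 and LAMB2 the groups did not overlap. LAMB3 had a log2 difference of 0.18 (standard error 0.16), a level 1.13-fold higher with an interval from 0.880-fold to 1.45-fold, and both replicates gave 0.18. LAMB2 had one of 0.19 (standard error 0.16), with 0.26 and 0.12 in the replicates. These 2 were the tested members other than ITGB1 whose group difference was larger than both differences between replicates, 2 of 16 members, against 20.7% of all genes tested. Neither passed the test of limma, whose standard error combines a gene's own spread with that of all genes of like level. LAMA5 had a difference of -0.12 (standard error 0.19), LAMC1 one of 0.09 (standard error 0.20) and LAMB1 one of -0.04 (standard error 0.18), and each went the same way in both replicates.

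Counted by overlap, both si-152 libraries lay above both si-NC libraries in 3 of the 17 tested members, ITGB1, LAMB2 and LAMB3, against 16.5% of all genes tested. In 0 of them both lay below, against 13.9%, and in either direction 30.4% of all genes tested did not overlap. The ITGB1 separation rests on its listed 0. Without ITGB1, 9 of 16 members had the same sign in both same-numbered replicates, against 63% of all genes tested.

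The 14 members that did not pass the filter on low values cannot be compared with this precision. Of these, 12 were above 0 in some library. Both si-152 libraries were above both si-NC libraries in ITGB2, ITGB7 and ITGB8 and below in ITGA11 and LAMA2, against 13.6% and 15.3%, together 28.9%, of all genes above 0 that were not tested. ITGB8, which with ITGAV activates latent TGF-β, measured 0.273 and 0.310 FPKM in the si-NC libraries against 0.641 and 0.347 FPKM in the si-152 libraries. ITGB7 measured 0.183 and 0.09 FPKM in the si-NC libraries against 0.236 and 0.227 FPKM in the si-152 libraries. ITGB2, listed at 0 in the first si-NC library, reached 0.0272 FPKM in the other si-NC library against 0.0626 and 0.0748 FPKM in the si-152 libraries. ITGA11 measured 0.0165 and 0.0202 FPKM under si-NC and is listed at 0 in both si-152 libraries. All values of ITGB2, ITGB7, ITGB8 and ITGA11 lie under 1 FPKM, and LAMA2 reached 1.05 FPKM in si-NC replicate 1.

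Single replicates of a group differed more than the group means did. The median size of the log2 difference between replicates was 0.30 in si-NC and 0.16 in si-152 over the 16 members, against 0.08 between the group means. These are unlike measures, since means of 2 libraries vary less than single libraries. A shift shared by same-numbered libraries also cancels between the groups. In 12 of the 16 members both replicate 2 libraries lay below both replicate 1 libraries, against 33.6% of all genes tested. ITGA2 was such a gene, with a replicate 2 minus replicate 1 difference of -0.69 in si-NC and -0.33 in si-152. The exceptions were ITGA7, ITGAE, LAMB2 and LAMB3. This replicate difference went with transcript length. The longest coding transcript of the 16 members had a median of 5720 bases, against 3365.5 bases over 10776 tested genes with a length. In tested genes under 2000 bases the median of replicate 2 minus replicate 1 was 0.17 in si-NC and 0.30 in si-152, and in those of 6000 bases or more it was -0.35 and -0.26. The part of this in the levels of the members was not tested.

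**Figure D3:**
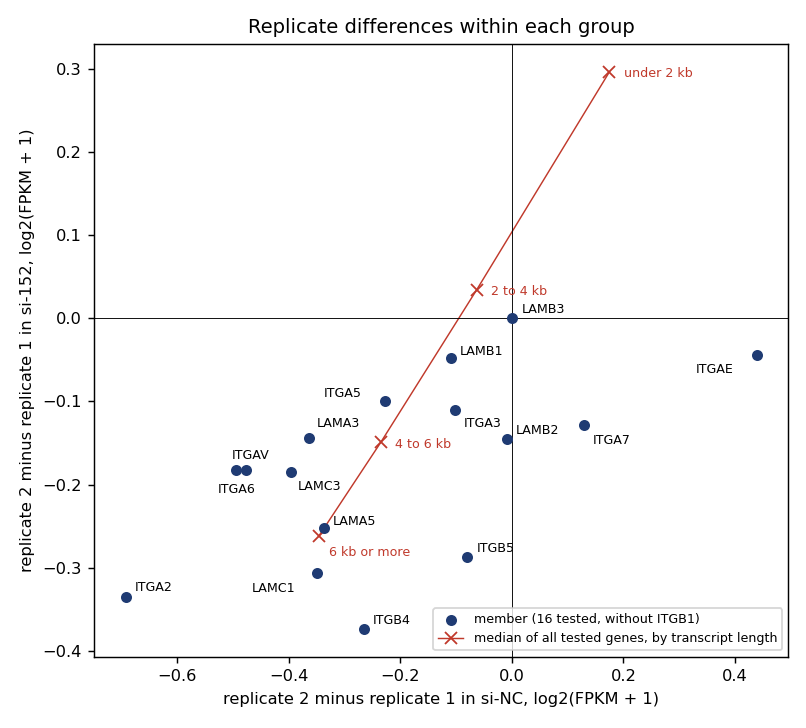
Replicate 2 minus replicate 1 on log2(FPKM + 1) in si-NC (horizontal) and in si-152 (vertical) for 16 tested members (points) and, as crosses, the medians of all tested genes in bins of transcript length. Members lie mostly at the lower left, near the medians of genes of 4 kb or more, with ITGA2 at -0.69 and -0.33.

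The genes that work beside integrins and laminins were described from 6 lists holding 148 genes, of which 103 were tested. At an unadjusted p under 0.05 by limma, 2 of the 103 were higher in si-152 and 1 was lower, against 1.89% and 2.5% of all genes tested, and 0 passed adjustment. The median log2 difference of the 103 genes was 0.05, beside 0.02 over all genes tested.

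PTK2, the focal adhesion kinase recruited to clustered integrins, was the 1 lower gene at the unadjusted threshold. PTK2 measured 27.2 and 21.4 FPKM under si-NC (24.3 ± 4.10, SD, n = 2) against 16.7 and 15.8 FPKM under si-152 (16.3 ± 0.603, SD, n = 2). Both si-152 libraries lay below both si-NC libraries. The log2 difference was -0.54 (standard error 0.18), a 0.687-fold level, with an adjusted p of 0.904 by limma. It was -0.67 in replicate 1 and -0.41 in replicate 2. Without si-NC replicate 1 it was -0.37 and no longer past the unadjusted threshold. Of the 33 tested focal adhesion scaffolds and kinases, 23 were above 0 and 10 below, with a median of 0.07. The proteins that bind integrin tails, with 17 tested, had a median of -0.01.

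SDC4, a heparan sulfate proteoglycan that acts with integrins at focal adhesions, was 1 of the 2 higher genes at that unadjusted threshold. SDC4 measured 97.8 and 97.1 FPKM under si-NC (97.4 ± 0.473, SD, n = 2) against 143 and 129 FPKM under si-152 (136 ± 9.48, SD, n = 2). The groups did not overlap, and the log2 difference was 0.48 (standard error 0.17), a 1.39-fold level, with an adjusted p of 1.00 by limma. Without si-NC replicate 1, si-NC replicate 2 or si-152 replicate 1 it was 0.48, 0.47 and 0.41, and no longer past the unadjusted threshold. SDC4 belongs to the list of other laminin receptors and basement membrane proteins, whose 14 tested genes had a median of 0.19, with 11 above 0 and 3 below.

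ADAM15, a membrane metalloprotease that carries an integrin-binding motif, was the other higher gene. ADAM15 measured 35.5 and 39.6 FPKM under si-NC (37.6 ± 2.90, SD, n = 2) against 51.0 and 58.3 FPKM under si-152 (54.7 ± 5.19, SD, n = 2). The groups did not overlap, and the log2 difference was 0.53 (standard error 0.17), a 1.44-fold level, with an adjusted p of 0.881 by limma. Without si-NC replicate 1 or si-152 replicate 2 it was 0.45 and 0.43, and no longer past the unadjusted threshold. The 9 tested proteases had a median of 0.06, the 17 tested other integrin ligands one of 0.05, and the 13 tested hemidesmosome and tetraspanin partners one of -0.0038.

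**Figure D4:**
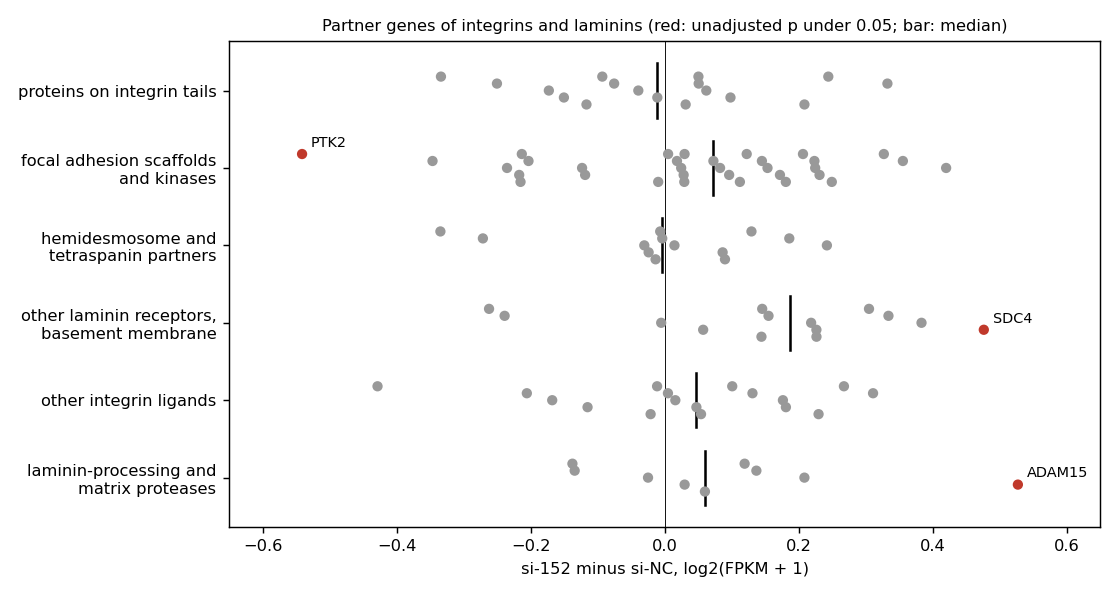
Difference between si-152 and si-NC on log2(FPKM + 1) for the 103 tested partner genes in 6 lists, 1 point per gene, with black bars at each list's median and red points at an unadjusted p under 0.05 by limma. PTK2 lies lowest at -0.54, and ADAM15 and SDC4 highest at 0.53 and 0.48, with all list medians between -0.01 and 0.19.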

How the data were processed

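HCT116 RNA was sequenced in 4 libraries, 2 per group. The authors deposited 1 table per library with 1 FPKM value per gene symbol. The unit is not named and was read from the values (decimals, exact zeros, unequal sums). The submitters' processing notes name GRCh38, Trimmomatic, TopHat, HISAT2, HTSeq and DESeq, with no roles. The annotation and the strand setting are not given in the sources used here. Whole reads were not recovered from these values, and depth is unknown.

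Of the symbols, 2 repeats were dropped, leaving 19972. The study tested counts with DESeq, without a block. Counts were not at hand, so limma 3.58.1 in R 4.3.3 was used here (trend, Benjamini-Hochberg, no block, two-sided). It was run on log2(FPKM + 1) of genes reaching 1 FPKM in 2 or more libraries. The test was checked on simulated data, in which libraries shared no deviation by replicate number. p-values measure the spread between biological replicates as labelled. Fold changes on this scale understate changes of low genes. Members and lists were chosen with earlier results of these data known. Named with values in every library were members at p under 0.05, members whose groups do not overlap, the highest members (6 integrin and 4 laminin chains) and ITGB1, and, per partner list, non-overlapping genes at p under 0.05. Positions and lengths are from GENCODE 29 (GRCh38), gene-start sequences from RefSeq. Alternatives changed the pseudocount, filter, block, trend, scaling, listed zeros and libraries.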

Additional observations from a re-analysis of the deposited data

How the results depend on the processing

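Over 9 alternatives with all 4 libraries, the 16 tested members other than ITGB1 kept their direction and did not pass the unadjusted threshold of 0.05 in 144 of 144 values. The alternatives for filter, block, trend and listed zeros cannot change the log2 difference of these members. Only those for pseudocount and scaling could have turned a direction. With 1 library left out, 40 of 64 values kept their direction and 24 turned, and 0 of the 64 passed that threshold. The log2 difference then ran from -0.36 to 0.33 for ITGA2, -0.0082 to 0.10 for ITGA3, -0.068 to 0.16 for ITGA5, -0.074 to 0.42 for ITGA6, -0.024 to 0.11 for ITGA7, -0.091 to 0.39 for ITGAV, -0.33 to 0.11 for ITGAE, -0.28 to 0.093 for ITGB4, -0.12 to 0.17 for ITGB5, -0.20 to 0.17 for LAMA3, -0.29 to 0.044 for LAMA5, -0.096 to 0.013 for LAMB1, -0.090 to 0.26 for LAMC1 and -0.26 to 0.13 for LAMC3, while LAMB2 (0.12 to 0.26) and LAMB3 (0.18 to 0.18) did not turn. The count of members at p under 0.05 higher in si-152 was 0, and 0 to 1 with 1 library left out, the 1 being ITGB1 through its listed 0. The median of the 17 tested members was 0.04, 0.03 to 0.05 under the other alternatives, and -0.074 to 0.16 with 1 library left out (0.16 without si-NC replicate 1, -0.074 without si-NC replicate 2, -0.066 without si-152 replicate 1, 0.11 without si-152 replicate 2). Leaving ITGB1 out was chosen after seeing the data and gave 0.03.

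Partner genes at p under 0.05 numbered 2 higher and 1 lower, and 5 and 4 with no filter, 4 higher and 2 lower with quantile normalization, 2 lower with each of no trend, size factors and at least 1 FPKM in every library, and 1 to 5 higher and 0 to 2 lower with 1 library left out. The cause of these shifts was not tested. The same-numbered libraries share only a number in the labels. Their deviations from the group means correlated at 0.52 across tested genes. With the replicate block, 1 member (ITGB1, through its listed 0) and 9 higher and 6 lower of the 103 partner genes were at p under 0.05, against 8.74% and 8.13% of all genes tested in the same fit. The adjusted p of PTK2, SDC4 and ADAM15 by limma was 0.0745, 0.0927 and 0.0650 with the block, the lowest over all alternatives, and up to 1.00 under others. What limits these values is 2 replicates a group and an unknown depth.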

Other observations

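Genes of the other basement membrane proteins ranged from near 0 to over 10 FPKM. NID1 and NID2, which link laminin to type IV collagen, were at most 0.0267 and 0.00939 FPKM. COL4A1 and COL4A2, the common type IV collagen chains, were at most 0.117 and 0.187 FPKM, whereas COL4A5, another type IV chain, was at 2.67 to 3.42 FPKM. COL18A1 measured 18.1 and 16.9 FPKM in the si-NC libraries against 13.9 and 15.0 FPKM in the si-152 libraries. FBLN1 was at 8.77 to 11.3 FPKM. Of the proteoglycans of the basement membrane, AGRN measured 18.2 and 15.95 FPKM in the si-NC libraries against 21.1 and 22.5 FPKM in the si-152 libraries, and HSPG2 was at 4.93 to 7.58 FPKM. Both si-152 libraries lay above both si-NC libraries in AGRN (unadjusted p = 0.0779 by limma) and below in COL18A1 (unadjusted p = 0.152 by limma). Of the 103 tested partner genes, 20 lay above in this way and 10 below, against 16.5% and 13.9% of all genes tested. The genes in these paragraphs were chosen after their values were seen.

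Among the other integrin ligands, mRNA of the type VI collagen chains COL6A1 and COL6A2 was at 37.2 to 45.5 FPKM and 38.3 to 50.02 FPKM. COL6A3, another chain of that collagen, was at most 0.151 FPKM. FN1, the fibronectin gene and ligand of α5β1, measured 1.28 and 0.834 FPKM in the si-NC libraries against 1.77 and 0.809 FPKM in the si-152 libraries. The tetraspanin CD151, a membrane partner of α3β1 and α6β4, measured 153 and 169 FPKM in the si-NC libraries against 182 and 199 FPKM in the si-152 libraries. The groups did not overlap, and the unadjusted p of CD151 was 0.228 by limma. PLEC, which ties ITGB4 to keratin, was at 66.8 to 105 FPKM.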
